A study of Cricetulus griseus with 6 samples.

Results

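Immediate early genes are transcribed within minutes of growth factor stimulation without new protein synthesis, and several of them encode transcription factors that carry the signal onward. Downstream of receptor tyrosine kinases such as HER2, the small GTPase RAS and the kinases RAF, MEK and ERK act in sequence, and ERK drives this early transcription through ternary complex factors at serum response elements. The same cascade induces its own inhibitors, the dual-specificity phosphatases and the Sprouty proteins, so their mRNA is widely read as an output of ERK. The steady level of these transcripts many hours after a stimulus reflects both input and feedback.

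The genes of this kind examined here were Egr1, Fos, Fosl1, Klf10, Ier3, Myc, Dusp1, Dusp6, Spry2 and Spry4, 10 in all. They were named by symbol, with earlier results of these data known, and no threshold on their values was used. For each gene the transcript clusters (the probe groups that the array summarizes as 1 value) annotated to exactly that symbol were taken, and the cluster with the highest mean over the 6 arrays was used. All 10 genes were found among 14899 genes with a cluster of their own, 8 of them with 1 cluster and 2 of them, Klf10 and Spry2, with 2 clusters. The Entrez ID and symbol of all 10 stood together in the RefSeq gene table of the Chinese hamster, assembly CriGri-PICRH-1.0. No sequence of these genes was used here.

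Each of 6 conditions was hybridised to 1 Affymetrix array designed for Chinese hamster ovary (CHO) transcripts. The HER2-overexpressing line was CHO-K6, a CHO line that stably carries human HER2, and its parent was the wild-type line CHO-K1. CHO-K6 cells were treated with trastuzumab + pertuzumab, with pertuzumab or with trastuzumab, or left untreated, and CHO-K1 cells were treated with trastuzumab + pertuzumab or left untreated. Trastuzumab and pertuzumab are antibodies against the extracellular part of human HER2, and both were given at 10 µg/mL for 24 h in medium with 10% serum. Before treatment the cells had been kept for 24 h in 1% serum. The sources used here do not say how the dose was divided in the combination. CHO-K6 is 1 stable line carrying a transgene, so HER2 overexpression and any other difference between the lines cannot be told apart. Cells given a control antibody, and CHO-K1 cells given trastuzumab or pertuzumab alone, were not analysed here.

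The values are log2 signals, so a difference of 1 is 2-fold and a difference of 0.58 is 1.5-fold. The array medians lay between 5.89 and 5.91, and 48.8% to 49% of clusters per array had a signal of 6 or more. With 1 array per condition no spread within a condition was measured, and no value below has a replicate error. The arrays of a line differ in treatment and were not taken as replicates of it, so no test was run. Each difference is therefore set beside the same difference in all 14899 genes, or in the genes whose mean signal lay within 0.5 of that gene. Of the 10 genes, 9 had a mean signal of 6 or more, the exception being Klf10 at 5.97. The labels call both lines epithelial. Of the epithelial markers measured (4 of the 6 listed), Epcam lay between 3.98 and 4.65, Krt8 between 4.19 and 4.85, Krt18 between 4.40 and 4.99 and Cdh1 between 5.86 and 6.49. Of the 5 mesenchymal markers, Vim lay between 13.19 and 13.30, Fn1 between 11.39 and 11.54 and Zeb1 between 9.71 and 10.17. Col1a1 (5.78 to 6.12) and Cdh2 (5.09 to 5.40) lay near or under 6, above Epcam, Krt8 and Krt18. Of the markers of leukocytes and endothelium, Ptprc lay between 3.83 and 4, Pecam1 between 4.59 and 5.09 and Cd68 between 6.71 and 7.10. The hamster Erbb2 cluster read 8.80 to 9.21 on the CHO-K6 arrays and 8.50 to 8.64 on the CHO-K1 arrays, and how far its probes read human HER2 was not tested.

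**Figure D1:**
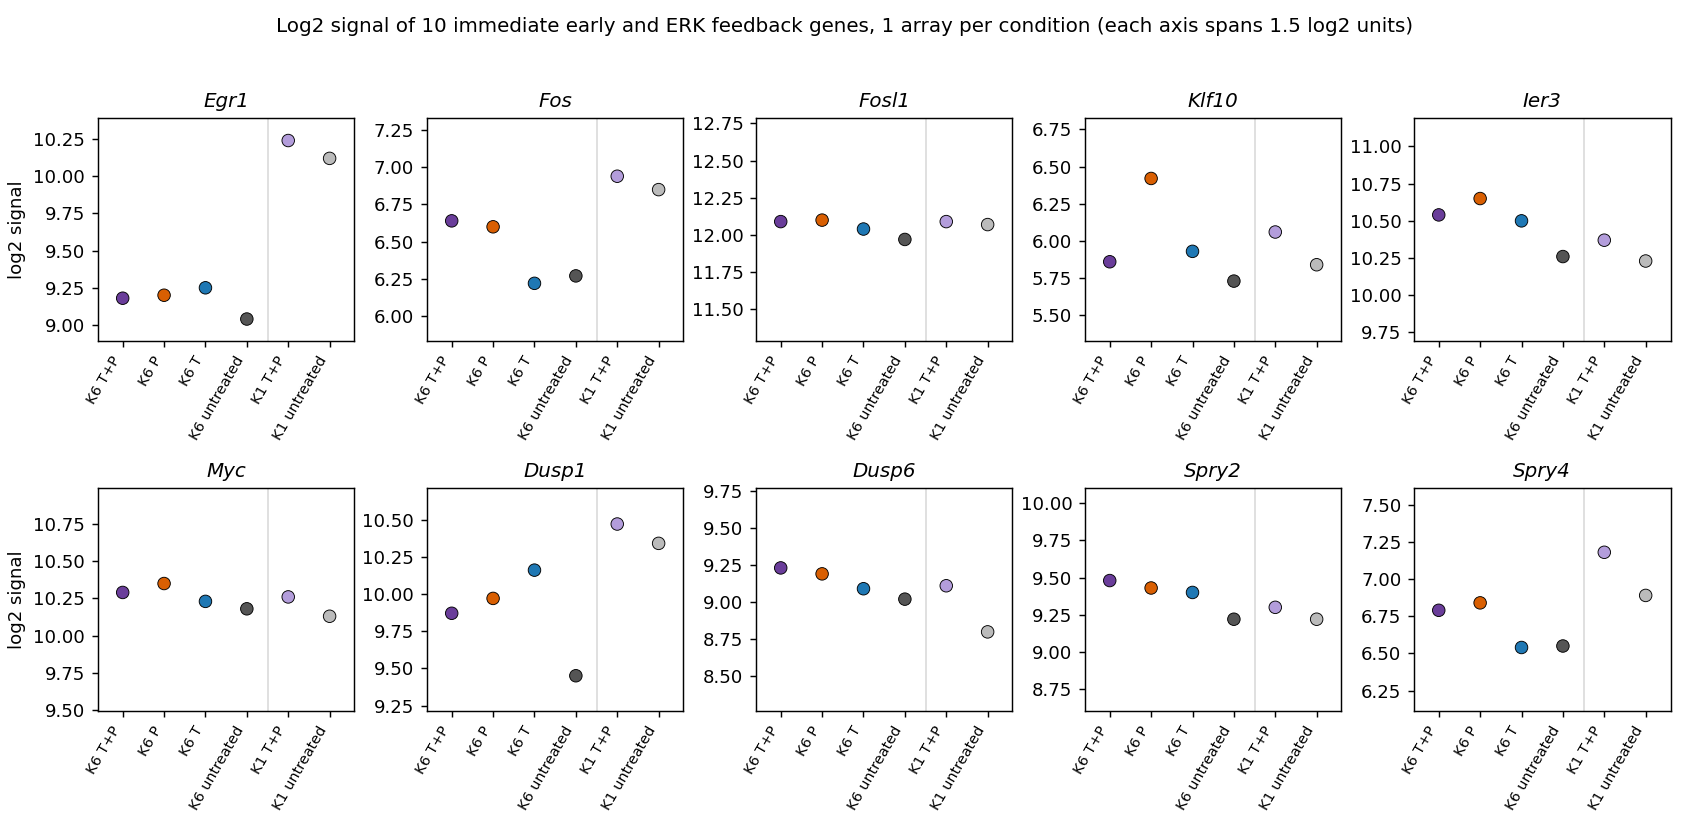
Log2 signal (y axis, each panel 1.5 log2 units tall) of the 10 genes on the 6 arrays (x axis), 1 point per array, with the 4 CHO-K6 arrays left of the vertical line and the 2 CHO-K1 arrays right of it; T is trastuzumab and P is pertuzumab. Egr1, Fos, Dusp1 and Spry4 lie lower on all 4 CHO-K6 arrays than on both CHO-K1 arrays, and Dusp1 is lowest in untreated CHO-K6 at 9.45.

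The question of the line comparison is how the HER2-overexpressing line differs from its parent in these immediate early and ERK feedback transcripts. ERK activity was not measured here. The study's authors report that HER2 signalling through PI3K/AKT and MAPK, the pathway of ERK, is not functional in CHO-K6. Egr1 and Dusp1 were lower in CHO-K6 than in CHO-K1 by 1.5-fold or more, both without antibody and under the combination, whereas Fosl1, Myc and Spry2 were close to equal. In untreated cells 2 of the 10 genes were lower by 1.5-fold or more, beside 4.48% of all genes. None was higher by 1.5-fold, beside 4.32% of all genes. Past 2-fold in either direction there was only Egr1, beside 1.75% of all genes. In all, 3 of the 10 genes were higher in untreated CHO-K6 by any amount, 6 were lower and Spry2 was equal, and 42.9% of all genes were higher. The median of the 10 differences was -0.105, against -0.04 for all genes.

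Egr1 (transcript cluster 18050657) encodes a zinc finger transcription factor that is induced through ternary complex factors. Its signal was 9.18 with trastuzumab + pertuzumab, 9.20 with pertuzumab, 9.25 with trastuzumab and 9.04 untreated in CHO-K6, against 10.24 with the combination and 10.12 untreated in CHO-K1. The CHO-K6 arrays spanned 0.21 and the CHO-K1 arrays 0.12, and a gap of 0.87 separated the lines. Untreated CHO-K6 was lower than untreated CHO-K1 by a log2 difference of -1.08, so that CHO-K1 was 2.11-fold higher. Only 12 of 2140 genes of similar signal had a lower difference. Under the combination the difference was -1.06, with 13 of the 2140 genes lower. These comparisons use different arrays, and the Egr1 values of the lines lie nearly equally far apart in both.

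Dusp1 (18064585) encodes a nuclear phosphatase that dephosphorylates p38, JNK and ERK. It read 9.87 with the combination, 9.97 with pertuzumab, 10.16 with trastuzumab and 9.45 untreated in CHO-K6, against 10.47 with the combination and 10.34 untreated in CHO-K1. All 4 CHO-K6 arrays were below both CHO-K1 arrays, with a gap of 0.18. The difference between the lines was -0.89 untreated, where 19 of 1749 genes of similar signal lay lower, and -0.60 under the combination, where 69 of them did. In contrast to Egr1, the distance of Dusp1 from CHO-K1 varied with the CHO-K6 array, whose range was 0.71.

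Fos (18048551) encodes the partner of JUN in the AP-1 factor. Its signal was 6.64 with the combination, 6.60 with pertuzumab, 6.22 with trastuzumab and 6.27 untreated in CHO-K6, against 6.94 with the combination and 6.85 untreated in CHO-K1. All CHO-K6 arrays were again the lower ones, with a gap of 0.21. The untreated difference was -0.58 (1.495-fold), just short of 1.5-fold, and 6.8% of 1160 genes of similar signal were lower. Under the combination it was -0.30.

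Spry4 (18051525), which encodes a Sprouty inhibitor of RAS to ERK signalling, read 6.79 with the combination, 6.84 with pertuzumab, 6.54 with trastuzumab and 6.55 untreated in CHO-K6, against 7.18 with the combination and 6.89 untreated in CHO-K1. The gap between the lines was 0.05, far smaller than the range of 0.30 within CHO-K6. Its line difference was -0.34 untreated and -0.39 under the combination, and 16.7% and 14.5% of 1177 genes of similar signal were lower.

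Under the combination 2 of the 10 genes, Egr1 and Dusp1, were lower in CHO-K6 by 1.5-fold, beside 5.17% of all genes, and none was higher by 1.5-fold, beside 6.03%. Egr1 alone passed 2-fold, beside 2.45% of all genes. There were 4 genes higher, 5 lower and Fosl1 equal, while 40.9% of all genes were higher, and the median of the 10 was -0.10 against -0.06. Across all arrays, 4 of the 10 genes (Egr1, Fos, Dusp1 and Spry4) were lower on all 4 CHO-K6 arrays than on both CHO-K1 arrays, a pattern held by 24.1% of all genes. None had all CHO-K6 arrays higher, which held for 17.5% of all genes. The mean of the CHO-K6 arrays minus that of the CHO-K1 arrays was -1.01 for Egr1, -0.54 for Dusp1, -0.46 for Fos and -0.36 for Spry4. For the other 6 genes it lay between -0.03 for Fosl1 and 0.19 for Ier3, with arrays of the lines overlapping.

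**Figure D2:**
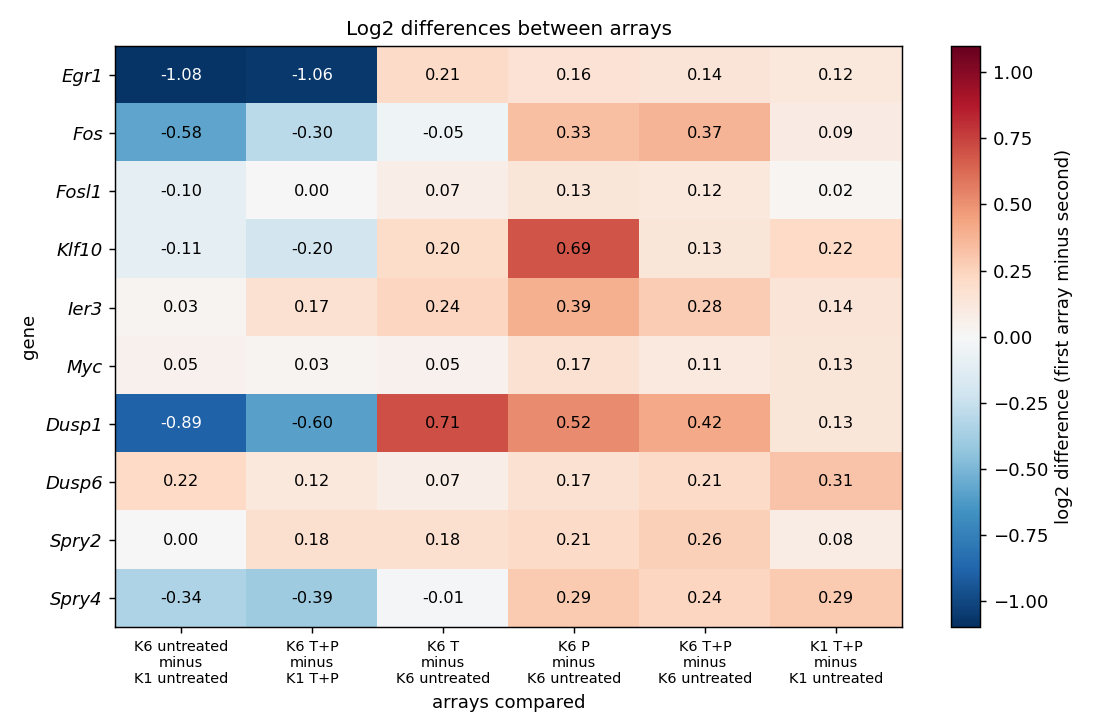
Log2 differences of the 10 genes (rows) in the 6 comparisons (columns), coloured from blue (lower on the array named above) to red (higher) and printed in each cell; K6 and K1 stand for CHO-K6 and CHO-K1, T for trastuzumab and P for pertuzumab. The lowest cells are Egr1 in both line comparisons (-1.08 and -1.06), and the highest are Dusp1 with trastuzumab (0.71) and Klf10 with pertuzumab (0.69).

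The antibody comparisons ask how each antibody and their combination changed the transcriptome of HER2-overexpressing cells, here in the same 10 transcripts. Read by the clusters used, nearly all of the 10 genes were higher with antibody than without it, by small amounts. The differences farthest from those of other genes were those of Dusp1 with each CHO-K6 treatment and of Klf10 with pertuzumab, all against untreated CHO-K6. The Klf10 difference held for the cluster used (0.69) and not for its other cluster (-0.34). The 3 CHO-K6 antibody comparisons share the untreated CHO-K6 array, so a low value on that array raises all 3 differences of a gene. Read by the clusters used, that array was the lowest of the 4 CHO-K6 arrays for 8 of the 10 genes (all but Fos and Spry4), beside 28.5% of all genes. This count was chosen after its values were seen. In the other clusters of Klf10 and Spry2 the untreated CHO-K6 array was not the lowest.

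With trastuzumab 8 of the 10 genes, read by the clusters used, were higher than in untreated CHO-K6. The other 2 (Fos and Spry4) were lower, while 51.8% of all genes were higher. The median of the 10 was 0.125, against 0.01 for all genes. Only Dusp1 was 1.5-fold higher, beside 0.268% of all genes, none was 1.5-fold lower, beside 0.389%, and none passed 2-fold, beside 0.0336%. The Dusp1 difference was 0.71 (1.64-fold). None of 1749 genes of similar signal and 8 of all 14899 genes had a higher one. Ier3 followed with 0.24 and Egr1 with 0.21, higher than 98.1% and 95.5% of genes of similar signal.

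With pertuzumab all 10 genes, read by the clusters used, were higher than in untreated CHO-K6, by 0.13 to 0.69. On this array 58.6% of all genes were higher, and the median of all genes was 0.06, against 0.25 for the 10. Only Klf10 passed 1.5-fold, beside 0.946% of all genes, none was 1.5-fold lower, beside 1.57%, and none passed 2-fold, beside 0.141%. Dusp1 was 0.52 higher (1.43-fold), and 7 of 1749 genes of similar signal were higher still. Ier3 was 0.39 higher (1.31-fold) and Fos 0.33 higher, above 96.3% and 89.2% of genes of similar signal. The Egr1 difference of 0.16 was above only 67.7%.

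Klf10 (17994129), which encodes a Krüppel-like repressor first known as a TGF-beta-inducible early gene, was read by 2 clusters that disagreed. The cluster used here had a signal of 5.86 with the combination, 6.42 with pertuzumab, 5.93 with trastuzumab and 5.73 untreated in CHO-K6, against 6.06 with the combination and 5.84 untreated in CHO-K1. Only the pertuzumab array stood apart. The pertuzumab difference was 0.69 (1.61-fold), and 3 of 1436 genes of similar signal had a higher one. The other Klf10 cluster (17994127) read 4.97, 4.94, 5.39 and 5.28 on the CHO-K6 arrays in that order, and 4.90 and 4.99 on the CHO-K1 arrays, so its pertuzumab difference was -0.34. The clusters thus went in opposite directions with pertuzumab, and both lay near or under a signal of 6.

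With the combination all 10 genes, read by the clusters used, were also higher than in untreated CHO-K6, by 0.11 to 0.42. Of all genes 52% were higher. The medians were 0.225 for the 10 and 0.01 for all genes. None reached 1.5-fold in either direction, beside 0.295% of all genes higher and 0.443% lower, or 2-fold, beside 0.0537%. Dusp1 led with 0.42 (1.34-fold), and no gene of similar signal and 181 of all genes were higher. Fos had 0.37, above 97.2% of genes of similar signal, Ier3 0.28 (above 99.3%) and Spry2 0.26 (above 98.8%).

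In CHO-K1, which carries no human HER2 transgene, the combination array was likewise higher than the untreated array for all 10 genes, by 0.02 to 0.31, and 53.1% of all genes were higher. The median of the 10 was 0.13, against 0.02 for all genes. None passed 1.5-fold, beside 0.852% of all genes higher and 0.893% lower, or 2-fold, beside 0.094%. Dusp6 was highest with 0.31, above 97.4% of 2284 genes of similar signal, and Spry4 had 0.29 (above 88%). All 10 genes, read by the clusters used, were thus higher with the combination in both lines, a pattern of 31.2% of all genes. The other Klf10 cluster was lower with the combination, by -0.31 in CHO-K6 and -0.09 in CHO-K1. The second Spry2 cluster showed -0.01 in CHO-K6 and 0.35 in CHO-K1. The CHO-K6 difference exceeded that of CHO-K1 for 6 of the 10 genes and was smaller for 4, with a median excess of 0.06, while 48.7% of all genes had an excess. It was largest for Dusp1 (0.42 in CHO-K6 and 0.13 in CHO-K1, an excess of 0.29) and Fos (0.37 and 0.09, an excess of 0.28), and most negative for Dusp6 (0.21 and 0.31, an excess of -0.10). For Egr1 the difference was about the same in both lines, 0.14 in CHO-K6 and 0.12 in CHO-K1.

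**Figure D3:**
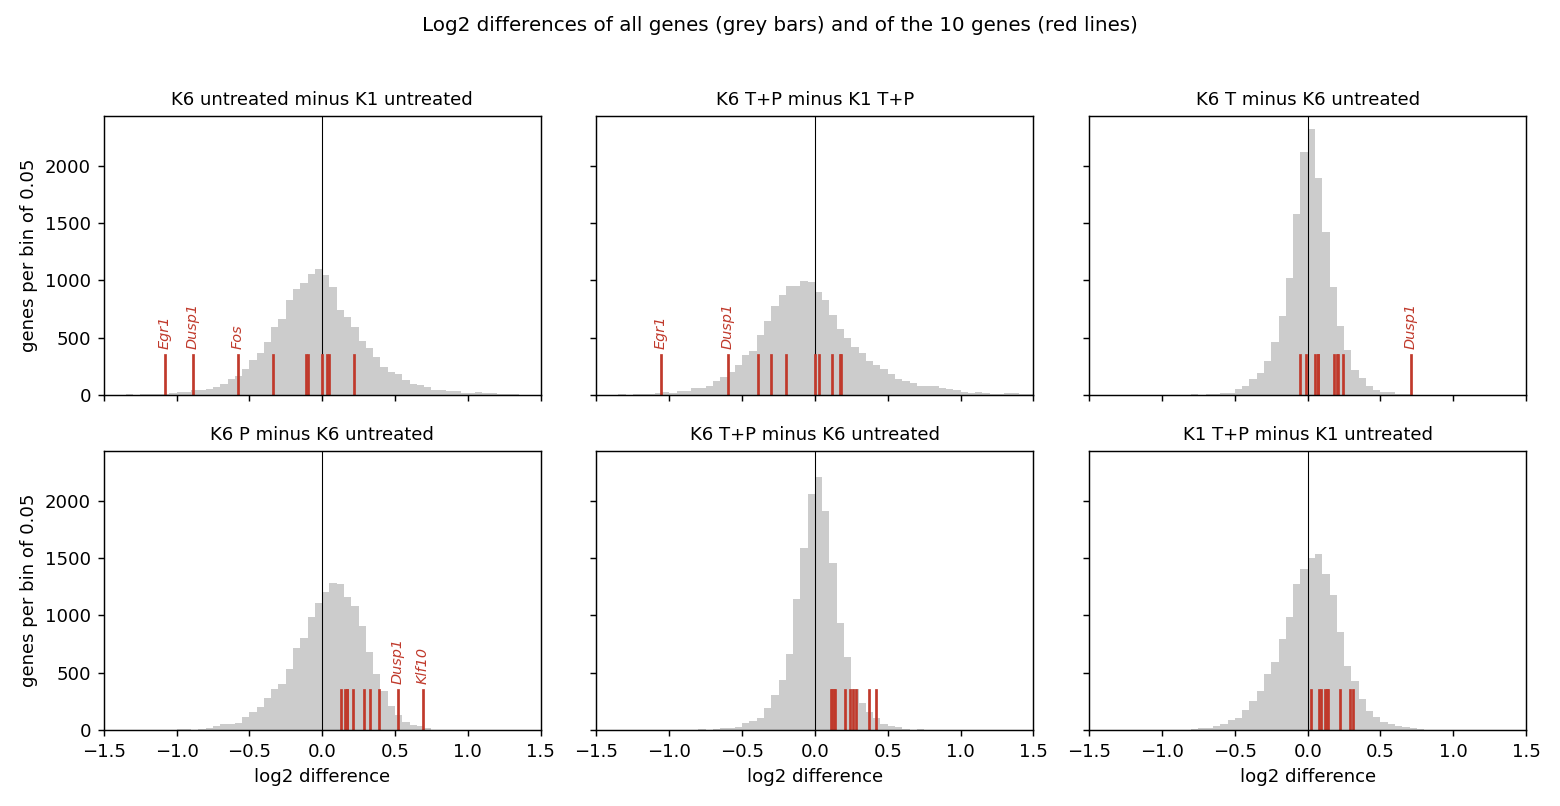
Number of genes (y axis) per bin of 0.05 of the log2 difference (x axis) for 14899 genes in the 6 comparisons (grey bars), with a red line for each of the 10 genes, named where it is 0.5 or more from 0, and no values drawn beyond 1.5 on either side. Dusp1 lies in the right tail of the genes in the trastuzumab panel at 0.71, and the line comparisons in the first panels are wider than the antibody comparisons.

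Of the remaining transcription factors and effectors, Fosl1 and Myc spanned 0.13 and 0.22 over the 6 arrays and Ier3 spanned 0.42. Fosl1 (17997306), the Fos relative FRA-1, read 12.09 with the combination, 12.10 with pertuzumab, 12.04 with trastuzumab and 11.97 untreated in CHO-K6, against 12.09 with the combination and 12.07 untreated in CHO-K1. Its range of 0.13 was the narrowest of the 10 genes. Myc (17952714), the growth-promoting transcription factor whose mRNA turns over rapidly, read 10.29 with the combination, 10.35 with pertuzumab, 10.23 with trastuzumab and 10.18 untreated in CHO-K6, against 10.26 with the combination and 10.13 untreated in CHO-K1. The lines overlapped, and the Myc differences between the lines were 0.05 untreated and 0.03 under the combination. Ier3 (18024441), an ERK substrate that regulates cell survival, read 10.54 with the combination, 10.65 with pertuzumab, 10.50 with trastuzumab and 10.26 untreated in CHO-K6, against 10.37 with the combination and 10.23 untreated in CHO-K1. Its antibody-treated CHO-K6 arrays were the 3 highest of the 6, and its untreated arrays were within 0.03 of each other.

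Among the feedback inhibitors, Dusp6 (18035679), a cytoplasmic phosphatase selective for ERK, read 9.23 with the combination, 9.19 with pertuzumab, 9.09 with trastuzumab and 9.02 untreated in CHO-K6, against 9.11 with the combination and 8.80 untreated in CHO-K1. In contrast to Dusp1 it was higher in CHO-K6 than in CHO-K1, by 0.22 untreated and 0.12 under the combination, although arrays of the lines overlapped. Spry2 (18046378), a Sprouty inhibitor like Spry4, read 9.48 with the combination, 9.43 with pertuzumab, 9.40 with trastuzumab and 9.22 untreated in CHO-K6, against 9.30 with the combination and 9.22 untreated in CHO-K1. Its untreated levels were equal in both lines. A second Spry2 cluster (18046374) read 6.29, 6.30, 6.06 and 6.30 on the CHO-K6 arrays in that order, and 6.28 and 5.93 on the CHO-K1 arrays. This cluster showed -0.24 with trastuzumab, where the cluster used here showed 0.18, and 0.37 between the untreated lines, where the cluster used here showed 0.00. The 4 phosphatase and Sprouty genes had median differences of 0.125 for trastuzumab, 0.25 for pertuzumab and 0.25 for the combination, each against untreated CHO-K6. The 6 others had 0.135, 0.25 and 0.135 in that order.

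Trastuzumab and pertuzumab bind different parts of the HER2 ectodomain, and their CHO-K6 arrays were compared at the stated dose and time. There were 3 such comparisons, and in none of them did any of the 10 genes pass 1.5-fold. Pertuzumab was higher than trastuzumab for 8 of the 10 genes, with a median of 0.11 beside 0.05 for all genes, of which 58% were higher. The widest of these were Klf10 (0.49), Fos (0.38) and Spry4 (0.30), and Dusp1 (-0.19) and Egr1 (-0.05) were lower. The combination minus trastuzumab was positive for 7 genes and negative for 3, with a median of 0.055 beside 0 for all genes, of which 47.8% were higher. It was 0.42 for Fos and 0.25 for Spry4, against -0.29 for Dusp1. The combination minus pertuzumab was positive for 3 genes and negative for 7, with a median of -0.035 beside -0.04 for all genes, of which 40.6% were higher. Apart from Klf10 (-0.56) it stayed between -0.11 and 0.05. For 7 of the 10 genes (Fos, Fosl1, Ier3, Myc, Dusp6, Spry2 and Spry4), read by the clusters used, both arrays with pertuzumab were above the trastuzumab and the untreated array. This pattern was chosen after the values were seen and was held by 23.5% of all genes. When each antibody array was set against the mean of the other 2 antibody arrays in place of the untreated one, the medians of the 10 were -0.092 for trastuzumab, 0.062 for pertuzumab and 0.01 for the combination, and 13 of 30 differences changed sign. The 3 differences of a gene against such means add up to 0. A change of sign is therefore built in for any gene higher on all 3 antibody arrays than untreated. For Dusp1 these differences were 0.24 with trastuzumab, -0.045 with pertuzumab and -0.195 with the combination, which gives only the order of the 3 arrays.

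Related genes were described by lists of other immediate early genes, of other ERK feedback and output genes and of the cascade itself. Of 31 other immediate early genes 23 were measured. In the untreated line comparison, where 42.9% of all genes were higher, 12 were higher in CHO-K6 and 11 lower, with a median of 0.02. Ier2, an immediate early gene of nuclear localization, was the only one past 1.5-fold, with 6.74 with the combination, 6.94 with pertuzumab, 6.75 with trastuzumab and 6.45 untreated in CHO-K6, against 7.16 with the combination and 7.23 untreated in CHO-K1. It was lower on every CHO-K6 array than on both CHO-K1 arrays. Of the 23 genes 8 had this pattern, beside 24.1% of all genes, and 9 had the opposite one, beside 17.5%. Under the combination, where 40.9% of all genes were higher, 10 were higher in CHO-K6 and 12 lower. Plk2, a polo-like kinase, was higher there (9.89 in CHO-K6 and 9.30 in CHO-K1, a difference of 0.59). With antibody in CHO-K6 the medians were 0.03 for trastuzumab, 0.09 for pertuzumab and 0.03 for the combination, beside 0.01, 0.06 and 0.01 for all genes. Of the 23 genes 14, 15 and 13 were higher and none passed 1.5-fold, while 51.8%, 58.6% and 52% of all genes were higher. For the 10 genes the medians were 0.125, 0.25 and 0.225 in the same order.

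Of 19 other ERK feedback and output genes 13 were measured, and 8 were higher and 5 lower in CHO-K6 in both line comparisons, with medians of 0.06 untreated and 0.10 under the combination. Of all genes 42.9% and 40.9% were higher in these comparisons. Within the list only Rasa2, a GTPase-activating protein that turns RAS off, passed 1.5-fold. It read 8.04 with the combination, 7.35 with pertuzumab, 8.01 with trastuzumab and 8.01 untreated in CHO-K6, against 5.75 with the combination and 6.14 untreated in CHO-K1. Its line differences were 1.87 and 2.29, and the pertuzumab array was lower than untreated CHO-K6 by a difference of -0.66. With antibody in CHO-K6 the medians of this list were 0.10 for trastuzumab, 0.04 for pertuzumab and 0.05 for the combination.

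The ERK cascade components, 17 of 27 measured, had a median of -0.04 in both line comparisons. Shc1, the adaptor that couples phosphorylated receptors to RAS activation, was lower in CHO-K6 by differences of -0.62 untreated (9.68 in CHO-K6 and 10.30 in CHO-K1) and -0.74 under the combination (9.81 and 10.55). Rasa1, another RAS GTPase-activating protein, was higher in CHO-K6 under the combination by 0.85 (10.32 in CHO-K6 and 9.47 in CHO-K1). With antibody in CHO-K6, 12 of the 17 cascade genes were higher with trastuzumab, 11 with pertuzumab and 11 with the combination. Of all genes 51.8%, 58.6% and 52% were higher in that order. None of the cascade genes passed 1.5-fold. Of all genes 0.268%, 0.946% and 0.295% were 1.5-fold higher, and 0.389%, 1.57% and 0.443% were 1.5-fold lower. The 8 JNK and p38 phosphatases and kinases measured, of 11, stayed within 1.5-fold in all 6 comparisons, with line medians of -0.065 and -0.01.

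Myc itself differed little, and its partners and targets were listed beside it. Of the 8 genes of the MYC network measured, of 10, 7 were lower in untreated CHO-K6 and 8 under the combination. The medians were -0.33 and -0.32, beside -0.04 and -0.06 for all genes, of which 42.9% and 40.9% were higher. Mxi1, which competes with MYC for MAX, was lower under the combination (8.67 in CHO-K6 and 9.28 in CHO-K1), as was Mycn (5.02 and 5.62), whose signal lay under 6 on all arrays. With pertuzumab in CHO-K6, 7 of the 8 were higher, beside 58.6% of all genes. Their median was 0.265, beside 0.06 for all genes. Mycn was 0.60 higher (5.61 with pertuzumab and 5.01 untreated). With trastuzumab and with the combination 5 of the 8 were higher, beside 51.8% and 52% of all genes. Their medians were 0.07 and 0.03, beside 0.01 for all genes in each, so the combination array did not show the pertuzumab median. Of the 12 MYC targets measured, of 14, 9 were lower in untreated CHO-K6, with a median of -0.135 beside -0.04 for all genes. Odc1, the rate-limiting enzyme of polyamine synthesis, and Fbl, the rRNA methyltransferase fibrillarin, were higher there by 0.84 and 0.76. Odc1 was also 0.87 higher under the combination (10.29 in CHO-K6 and 9.42 in CHO-K1).

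**Figure D4:**
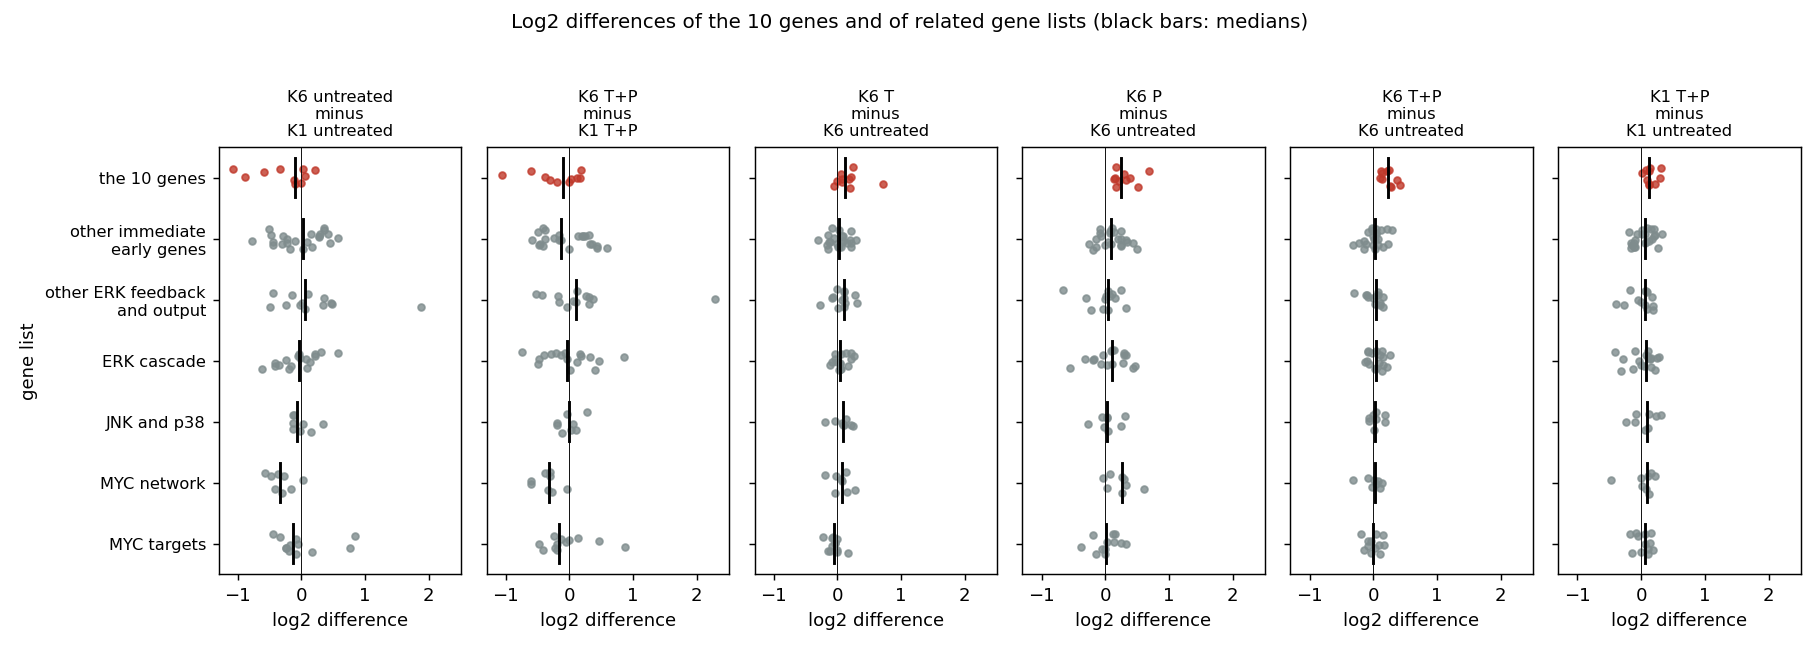
Log2 differences (x axis) of the 10 genes (red) and of the measured genes of the 6 lists (grey) in the 6 comparisons, 1 point per gene, with the median of each list as a black bar; the vertical spread of points within a list has no meaning. The median of the 10 genes is 0.25 with pertuzumab and 0.225 with the combination, and the far point of the ERK feedback and output list in the line comparisons is Rasa2 (1.87 and 2.29).

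Egr1 and Dusp1 were the only ones of the 10 genes whose arrays spanned 1 log2 unit or more (1.20 and 1.02), and for these the genes with the most similar profiles were looked up among 9094 others with a mean signal of 6 or more. Likeness was the root mean square difference between profiles centred on their own mean over the 6 arrays, which is a description over 6 arrays of 2 lines. The closest to Egr1 were Txnip, an inhibitor of thioredoxin (0.05), C1qtnf5 (0.056), Serp1 (0.062), Pcyox1l (0.064) and LOC100768693 (0.067). Txnip read 9.43 with the combination, 9.51 with pertuzumab, 9.52 with trastuzumab and 9.42 untreated in CHO-K6, against 10.60 with the combination and 10.49 untreated in CHO-K1. Closest to Dusp1 were Cenpb (0.113), Dcaf4 (0.117), Gstk1 (0.122), Smpd2 (0.125) and Kctd13 (0.129). Cenpb, a centromere protein, read 6.41 with the combination, 6.54 with pertuzumab, 6.47 with trastuzumab and 6.13 untreated in CHO-K6, against 6.93 with the combination and 6.83 untreated in CHO-K1. The nearest profiles of Egr1 thus lay closer to it than those of Dusp1 did.

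**Figure D5:**
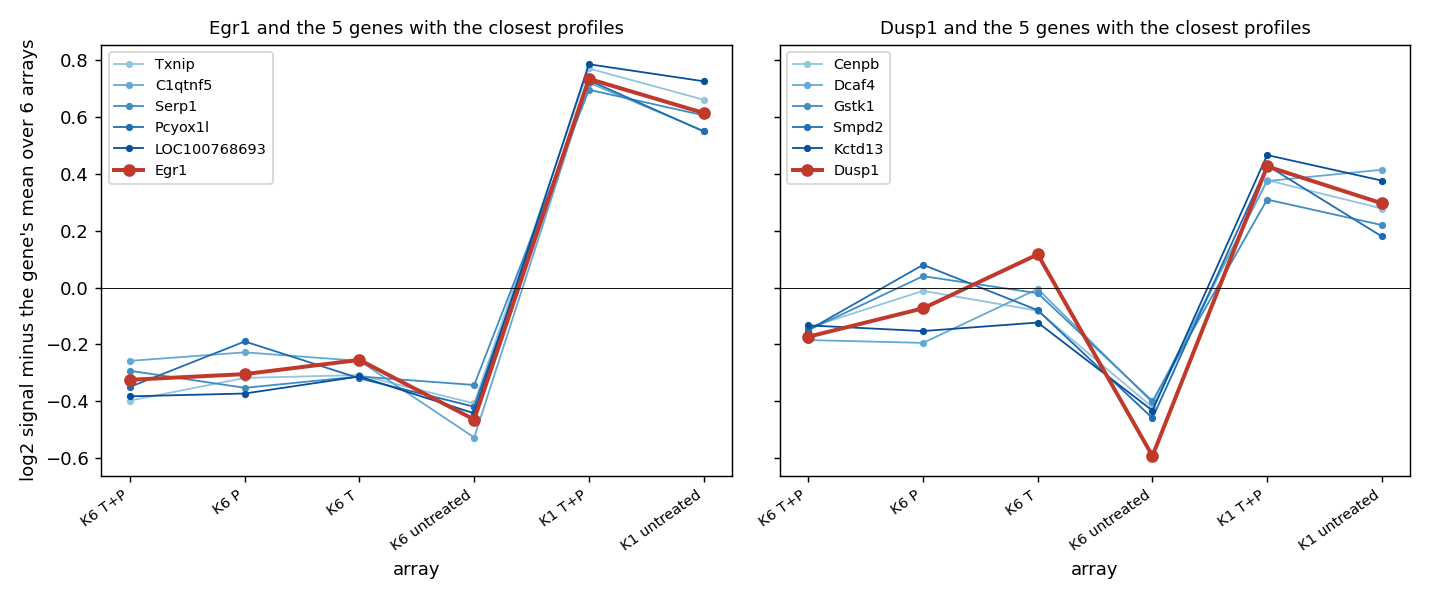
Log2 signal minus the gene's mean over the 6 arrays (y axis) on each array (x axis) for Egr1 (left, red) and Dusp1 (right, red) and the 5 genes closest to each (blue). Egr1 and its neighbours differ between lines and little within them, while Dusp1 lies above its neighbours with trastuzumab and below them in untreated CHO-K6.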

How the data were processed

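RNA of 6 conditions was hybridised to Affymetrix CHO Gene ST arrays (version 2.0 in the study's methods), 1 array each. The deposited values are log2 signals per transcript cluster, made by the authors with Transcriptome Analysis Console 3.0 and, per the labels, Expression Console. The normalization method and genome build are not given in the sources used here. The table of 29700 clusters was used as deposited, without rescaling and without scanner files. A symbol was given to 16481 clusters as the only one, several to 793 and none to 12426.

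The 10 genes and the lists were chosen with earlier results of these data known. Differences are the array named first minus the other. From each list a gene was named past 1.5-fold, at most 4 per direction and comparison, with the 5 likest genes of any of the 10 spanning 1 or more. Alternatives were a 1.5-fold threshold, quantile normalization, a signal of 6 or more, the series matrix table of 30934 clusters, the mean of clusters, the mean in place of the median, and other arrays as the basis. The code was checked on simulated arrays for pertuzumab against untreated CHO-K6 over 14899 genes, where 200 of 200 shifted genes were recovered. The simulated shift was set above the 2-fold threshold and far beyond the simulated noise, so this recovery was fixed by the settings. It does not bear on differences under 2-fold, such as those with antibody in the 10 genes. Python 3.11.15, NumPy 2.4.6, pandas 2.3.3 and Matplotlib 3.10.9 were used. Symbols were checked against RefSeq. The number of arrays limits the precision.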

Additional observations from a re-analysis of the deposited data

Results flagged for a closer look

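Opposite directions by 0.1 or more on both sides were found for 5 of the genes named by the rule or listed as markers, and for none of the 10 genes. Fbl, a MYC target by its list, was lower with the combination by a log2 difference of -0.19 in CHO-K6 (11.35 with trastuzumab + pertuzumab and 11.54 untreated) and higher by 0.11 in CHO-K1 (10.89 with trastuzumab + pertuzumab and 10.78 untreated). Among the markers, the combination minus untreated was -0.22 in CHO-K6 and 0.28 in CHO-K1 for Krt18, 0.34 and -0.32 for Col1a1, and 0.20 and -0.15 for Pecam1. CHO-K6 minus CHO-K1 was 0.33 under the combination and -0.33 untreated for Col1a1, 0.20 and -0.18 for Cdh2, and 0.11 and -0.24 for Pecam1. These 4 markers had signals near or under 6. Each value rests on 1 array per condition, and none of these differences between the lines or treatments was tested.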

How the results depend on the processing

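Each condition has 1 array, so no difference could be set against a spread between replicates, and signals under about 6, such as those of Klf10, lie close to the median of the array. No paired analysis was possible because each condition has 1 array. With a 1.5-fold threshold in place of 2-fold, 2 genes in place of 1 passed in each line comparison, and 1 in place of 0 with trastuzumab and with pertuzumab. Taken as a mean, the difference of the 10 genes was -0.28 for untreated CHO-K6 against CHO-K1 and -0.205 under the combination. With the mean of all arrays of each line the median line difference was 0.003, in place of -0.105. When each antibody array was set against the mean of the remaining antibody arrays, the medians were -0.092 for trastuzumab, 0.062 for pertuzumab and 0.01 for the combination, and 27 of 30 single differences moved by 0.1 or more. Within a gene these differences add up to 0. This setting therefore orders the antibody arrays and cannot check their difference from untreated CHO-K6. Quantile normalization and the series matrix table moved none of the 60 single differences by 0.1 or more (at most 0.058 and 0.01). Averaging all clusters of a gene moved 10 of 60 by 0.1 or more, at most 0.515, with 3 changes of sign. Among the changes of sign was Klf10 with the combination in CHO-K6, at -0.09 in place of 0.13. The largest move was that of Klf10 with pertuzumab, at 0.175 in place of 0.69, so that it no longer passed 1.5-fold.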
